A study of Homo sapiens with 27 samples.

Results

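The comparison described here set 293T cells without their own ARID1A that carried the G2087R form of ARID1A against the same kind of cells that carried wild-type ARID1A. It rests on 6 of the 27 libraries of the series, 3 labelled G2087R and 3 labelled WT, and on the 21123 genes of 67130 in the count table that had at least 10 counts in at least 3 of these 6 libraries. 293T is a line derived from human embryonic kidney that carries the SV40 large T antigen. Per the labels, both groups were ARID1A knockout cells with stable lentiviral overexpression of a Flag-tagged protein, which was ARID1A G2087R in the G2087R group and unmutated ARID1A in the WT group. Knockout cells with no added ARID1A (KO, 3 libraries) served as background. The other 293T groups, also knockout cells, received V2084D, G2087E or K2025E, with 3 libraries each. The promoter of the vector, and whether a group was a clone or a pool, are not given in the sources used here. Nothing in the labels says that the replicates were separate cultures, so the p-values reflect the spread between libraries, which may be technical. G2087R replicate 3 was described apart, because replicates 1 and 2 held little ARID1A transcript, which goes against their label of overexpression. All 3 comparisons (3 against 3 libraries, replicate 3 against WT, and replicates 1 and 2 against WT) share the WT libraries.

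ARID1A is the large, DNA-binding subunit that defines the canonical BAF (SWI/SNF) complex, a machine that uses ATP to slide or eject nucleosomes at enhancers and promoters. Its C-terminal domain packs against the core of the complex, and missense changes there occur in tumours. Misfolded proteins in the cytosol draw HSP70 and HSP90 chaperones away from the transcription factor HSF1, which then binds heat shock elements in chaperone genes and raises their transcription. STUB1 is a ubiquitin ligase that works on clients of those chaperones.

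The mutated residue is shown first, because it defines the group. The stretch below is reference sequence of the coding strand, GRCh38 chr1:26780130-26780186, plus strand, in exon 20 of ARID1A transcript ENST00000324856, and covers codons 2078 to 2096 of 2285. Capitals mark, in order, the codon changed in V2084D (GTC) and the codon changed in G2087R and G2087E (GGA).
ARID1A codons 2078 to 2096: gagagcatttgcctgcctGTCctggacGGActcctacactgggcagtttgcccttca
The windows that follow are the 200 bases before the RefSeq start of HSPA6, HSPA1A and HSPB8, heat shock genes whose transcripts stood out in G2087R replicate 3. They come from RefSeq on GRCh38.p14, all on the plus strand, at chr1:161524340-161524539, chr6:31815343-31815542 and chr12:119178731-119178930. The gene positions given further on come from GENCODE 29, whose start lies inside the window of HSPA1A and before that of HSPB8. Capitals mark GAANNTTC or TTCNNGAA, the core spacing of a heat shock element, searched on both strands (each motif is its own reverse complement, and neighbouring matches may overlap).
HSPA6: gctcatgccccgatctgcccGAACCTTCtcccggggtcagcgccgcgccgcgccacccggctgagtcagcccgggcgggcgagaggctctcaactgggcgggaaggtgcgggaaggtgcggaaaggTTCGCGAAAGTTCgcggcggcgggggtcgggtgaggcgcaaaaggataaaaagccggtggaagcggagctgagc
HSPA1A: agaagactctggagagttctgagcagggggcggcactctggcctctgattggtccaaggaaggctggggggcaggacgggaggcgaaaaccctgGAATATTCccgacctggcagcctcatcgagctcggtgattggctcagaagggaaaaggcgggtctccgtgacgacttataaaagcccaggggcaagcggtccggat
HSPB8: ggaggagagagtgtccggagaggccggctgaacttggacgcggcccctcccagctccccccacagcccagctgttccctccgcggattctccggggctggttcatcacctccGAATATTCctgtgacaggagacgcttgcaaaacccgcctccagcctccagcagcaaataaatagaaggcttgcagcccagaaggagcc
HSPA6 held 3 matches, of which a pair overlap, and HSPA1A and HSPB8 held 1 each. Of all 35116 windows of this length, 3210 (9.14%) held at least 1 match. The window of HSPA1B held 1 match and was identical to that of HSPA1A at 188 of 199 aligned bases (94.5%). A match describes letters only and shows no binding.

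The libraries held 51965027, 53182266 and 45137105 counts in G2087R replicates 1, 2 and 3, and 45894211, 55539529 and 45736601 in WT. Levels are in CPM (counts scaled to a common library total, after TMM), and differences are log2 values from edgeR with their standard errors (SE). Of 16 genes typical of the 293 line, 15 reached 1 CPM in some library and MAGEA4 was at 0. Of 24 liver genes 7 did so and 4 reached 10 CPM, namely CPS1 (at most 48.7 CPM), CEBPA (23.9), GPC3 (12.4) and FOXA1 (11.6). APOB, AFP, FGA and FGB were among those at 0. Of 16 fibroblast and blood cell genes 8 reached 1 CPM and 2 reached 10 CPM, namely COL1A1 (at most 57.6 CPM) and HBA1 (10.7). PTPRC, HBB and MS4A1 were at 0. Summed over the tested genes of each list, liver markers were at 79.4 to 83.1 CPM in G2087R and 75.2 to 84.2 CPM in WT, and fibroblast and blood cell markers at 45.4 to 72.2 and 51.9 to 66.9 CPM.

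ARID1A (ENSG00000117713, GRCh38 chromosome 1, 26693236 to 26782110, plus strand) is the gene knocked out and given back. It was at 290, 322 and 68130 CPM in the G2087R libraries, against 5671, 9244 and 63010 CPM in the WT libraries. G2087R replicates 1 and 2 stood below every WT library and near KO, which had 134, 194 and 117 CPM, while replicate 3 stood above all WT libraries. Gene counts do not show which form of ARID1A a library held, or whether the cells of replicates 1 and 2 carried any. The values therefore hold for libraries labelled G2087R, replicate 3 included. ARID1A made up 0.0295, 0.0326 and 6.75% of all counts in G2087R, against 0.573, 0.963 and 6.01% in WT. The 3 against 3 difference was -0.18 (SE 1.21, adjusted p = 0.993), and it was -6.41 without G2087R replicate 3, 0.40 without replicate 1 or replicate 2, and 1.62 without WT replicate 3. Only the libraries numbered 3 were matched in the amount of ARID1A transcript, with a log2 difference of 0.11 between them. In libraries 1 and 2 the ARID1A form and its amount cannot be told apart. STUB1 (chromosome 16, 680224 to 682870, plus strand) was at 282, 291 and 189 CPM in G2087R, against 327, 263 and 186 CPM in WT, so that both libraries numbered 3 were low and the groups overlapped. Its difference was -0.03 (SE 0.244, adjusted p = 0.994), and it was 0.15 without G2087R replicate 3 and 0.17 without WT replicate 1.

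G2087R replicate 3 lay closer to WT replicate 3 than to the other libraries of its own label. On the second principal component of the 18 libraries, G2087R replicates 1, 2 and 3 scored 55.8, 62.1 and -37, against -6, 9.5 and -52.5 for WT. Counts of G2087R replicates 1 and 2 differed with 16.6 times the variance expected from counting, and those of replicate 3 with 310 and 340 times when set against replicates 1 and 2. G2087R replicate 3 and WT replicate 3 differed with 42.5 times. These figures include ARID1A, whose level chose the split. It had 15336, 17322 and 3047603 counts in the G2087R libraries, against 2748076 in WT replicate 3. Its part was not set apart, so these figures do not show how far the other genes separate the libraries. Spearman rank correlations over the genes tested were 0.984 between the libraries numbered 3. Between G2087R replicate 3 and replicates 1 and 2 they were 0.969 and 0.966.

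**Figure D1:**
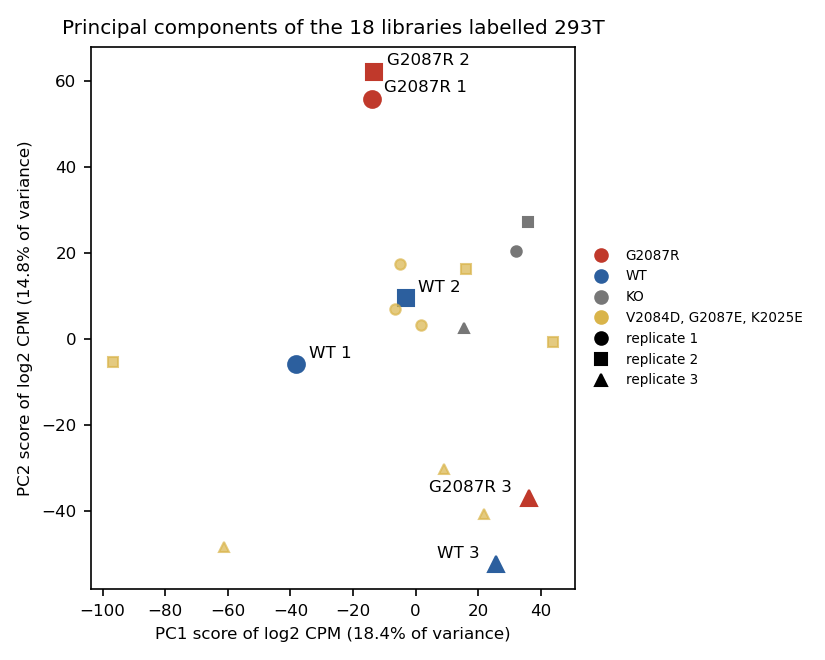
Scores of the 18 libraries labelled 293T on the first and second principal components of log2 CPM (18.4% and 14.8% of the variance), 1 point per library, with shape for replicate number and colour for group. G2087R replicates 1 and 2 lie at 55.8 and 62.1 on the second component, above every other library, and G2087R replicate 3 lies at -37 beside WT replicate 3 at -52.5.

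In replicate 3, the library labelled G2087R that held much ARID1A transcript, inducible heat shock genes were higher than in WT. Set against the 3 WT libraries, 5 genes rose and 0 fell at an adjusted p below 0.05, which is 0.0237% of the genes tested. They were HSPA1A, HSPA1B, HSPA6, the pseudogene HSPA7 and HSPB8, which encode or resemble heat shock proteins. At an unadjusted p below 0.05, 774 genes differed (3.66%), of which 239 were higher (1.13%) and 535 lower (2.53%), and DESeq2 called 8 higher and 13 lower. With 1 library on one side, 48.1% of all genes lay outside the range of WT, 23.4% above it and 24.7% below it. The lone library was assumed to vary like the other groups, so the test carries no spread of its own for G2087R. Without WT replicate 1 or WT replicate 2, 2 genes were called, and without WT replicate 3, 5 genes, of which 2 were among the 5 above.

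HSPA6 (chromosome 1, 161524540 to 161526910, plus strand) encodes a strictly inducible HSP70 that is nearly silent in unstressed cells. It reached 193 CPM in G2087R replicate 3 but 0.661 and 0.353 CPM in its replicates 1 and 2, against 1.12, 0.933 and 3.65 CPM in the WT libraries. Replicate 3 stood far above every WT library, while replicates 1 and 2 stood below all of them and near KO (0.696 CPM ± 0.176, SD, n = 3). In bulk RNA, a higher level per cell and a larger share of cells with the transcript cannot be told apart. In replicate 3 it rose by 6.68 (SE 0.583, adjusted p = 2.59e-05), and over 10 alternatives this value ran from 6.34 to 7.56 with adjusted p up to 0.00141. Over all 3 G2087R libraries the difference was 5.10 (SE 1.42, adjusted p = 0.972), and it was -1.88 without replicate 3. HSPA7 (chromosome 1, 161606291 to 161608217) was at 22.6 CPM in G2087R replicate 3, against 0.151, 0.0864 and 0.321 CPM in WT, and rose by 6.94 (SE 0.615, adjusted p = 2.59e-05). It is a close copy of HSPA6, and how reads shared by the copies were assigned is not given in the sources used here. It was singled out only once its values were known.

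HSPA1A and HSPA1B (chromosome 6, 31815464 to 31817946 and 31827735 to 31830255, both plus strand) encode the same major inducible HSP70 from near-identical genes, so the split of reads between them is uncertain. HSPA1A reached 2047 CPM in G2087R replicate 3 but 275 and 297 CPM in its replicates 1 and 2, against 348, 293 and 417 CPM in WT. HSPA1B reached 3728 CPM in replicate 3 but 492 and 530 CPM in replicates 1 and 2, against 620, 505 and 743 CPM in WT. In both genes replicate 3 alone left the range of WT upward. HSPA1A rose there by 2.53 (SE 0.405, adjusted p = 0.0453). The increase of HSPA1B was 2.58 (SE 0.401, adjusted p = 0.043). Each call ended when any WT library was left out, with adjusted p of 0.0566 to 0.254 for HSPA1A and 0.0525 to 0.254 for HSPA1B, while the differences stayed between 2.42 and 2.73. Over all 3 G2087R libraries they differed by 1.31 (SE 0.555) and 1.35 (SE 0.558), and by -0.30 and -0.29 without replicate 3.

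HSPB8 (chromosome 12, 119178642 to 119221131, plus strand), a small heat shock protein that acts with BAG3 in the clearance of misfolded proteins, reached 19.7 CPM in G2087R replicate 3 but 6.23 and 6.35 CPM in its replicates 1 and 2, against 7.16, 6.57 and 7.34 CPM in WT. The WT libraries lay close together and replicate 3 lay well above them. It rose by 1.48 (SE 0.241, adjusted p = 0.0456), a call that ended without any WT library (adjusted p 0.0611 to 0.254), with no filter on low counts (0.107) and with the G2087R and WT libraries alone in the fit (0.399). DNAJB1, the HSP40 co-chaperone that loads clients onto HSP70, reached 354 CPM in G2087R replicate 3 but 49.4 and 51.3 CPM in its replicates 1 and 2, against 70.3, 64.9 and 147.7 CPM in WT. Its difference in replicate 3, 1.91 (SE 0.402, adjusted p = 0.268), did not pass the threshold, but passed it without WT replicate 3 (2.39, adjusted p = 0.0281) and in DESeq2 (adjusted p = 0.0161). HSPH1, an HSP70 exchange factor, was at 344 CPM in replicate 3 against 147.7, 134 and 203 CPM in WT (1.09, SE 0.300, adjusted p = 0.956), and HSP90AA1, the inducible cytosolic HSP90, at 4636 CPM against 2628, 1951 and 2689 CPM (0.93, SE 0.252, adjusted p = 0.956).

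The rest of the chaperones moved less, and partly with the replicate number. Of the 11 HSP70 genes, 3 passed the test in replicate 3, 10 lay above 0, and 7 lay above every WT library, beside the 23.4% of all genes. Of the 11, 5 were higher at an unadjusted p below 0.05 (beside 1.13% of all genes), and this count was 4 without WT replicate 1 or WT replicate 2 and 8 without WT replicate 3. Their median difference was 0.56, beside -0.04 over all genes, and it was 0.95 without WT replicate 3. HSPA8, the constitutive cytosolic HSP70, was at 1063, 1115 and 2596 CPM in G2087R, against 1415, 1351 and 2485 CPM in WT, and HSPA5, the HSP70 of the endoplasmic reticulum, at 467, 426 and 958 CPM against 657, 529 and 999 CPM. Both libraries numbered 3 were thus high for these genes, and between those libraries the median over the HSP70 list was 0.06. In the same pair HSPA6 differed by 5.71, HSPA1B by 2.33, HSPA1A by 2.30, HSPB8 by 1.42, DNAJB1 by 1.26, HSP90AA1 by 0.79 and HSPH1 by 0.76, with no test possible for 1 library against another. Of 21 HSP40, HSP90 and other cytosolic chaperone genes, HSPB8 among them, 10 lay above every WT library (beside 23.4% of all genes) and 2 below (beside 24.7%). Of 20 genes of folding and stress in the endoplasmic reticulum, 0 passed, with a median of 0.29 against WT (0.18 to 0.52 when a WT library was left out) and of -0.04 between the libraries numbered 3. XBP1, a transcription factor of that response, was at 93.7, 93.0 and 295 CPM in G2087R, against 152, 118 and 297 CPM in WT.

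**Figure D2:**
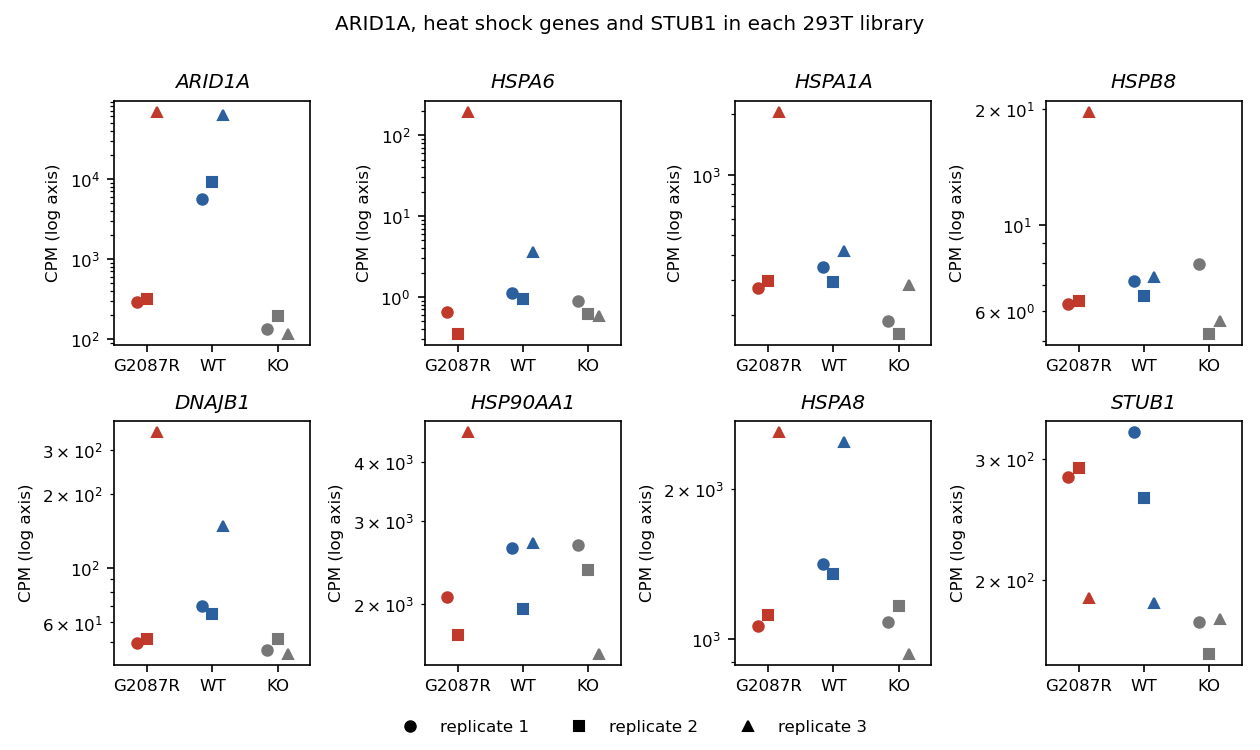
CPM on log axes of ARID1A, 6 heat shock genes and STUB1, 1 point per library, in the G2087R, WT and KO groups with shape for replicate number. HSPA6 is at 193 CPM in G2087R replicate 3 and at most 3.65 CPM in the other 8 libraries shown, whereas HSPA8 is high in both G2087R replicate 3 and WT replicate 3.

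The same genes were read in the other ARID1A forms, as a description without a test. HSPA6 was at 143, 68.7 and 161 CPM in V2084D and at 199, 93.1 and 197 CPM in G2087E, so that G2087R replicate 3, at 193 CPM, lay inside the range of G2087E, the other change of the same residue. In K2025E, with ARID1A at 17600, 13380 and 21710 CPM, HSPA6 was at 0.592, 1.39 and 1.25 CPM, inside the range of WT and KO. HSPB8 was at 11.3 to 12.5 CPM in V2084D and 10.1 to 11.5 CPM in G2087E, both below the 19.7 CPM of G2087R replicate 3 and above every WT library. ARID1A stood at 42830 to 115100 CPM in V2084D and 43920 to 84770 CPM in G2087E.

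With all 3 libraries labelled G2087R, of which replicates 1 and 2 go against that label in their ARID1A level, set against all 3 WT libraries, 1 gene of 21123 passed the test (0.00473%), and it fell. At an unadjusted p below 0.05, 912 genes differed (4.32%), of which 434 were higher (2.05%) and 478 lower (2.26%), and DESeq2 called 2 higher and 12 lower. Every G2087R library lay above every WT library in 1005 genes (4.76%) and below in 997 (4.72%), together 9.48%. The count of calls was 17 without G2087R replicate 3 and 0 without G2087R replicate 1, G2087R replicate 2, WT replicate 2 or WT replicate 3. With the replicate number as a block 1 gene was called, with offsets for GC content and length added to the block 17 (1 higher, 16 lower), and with the block and the G2087R and WT libraries alone, a setting chosen after seeing the data, 11 (3 higher, 8 lower).

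CELF3 (ENSG00000159409, chromosome 1, 151702404 to 151716814, minus strand), a neuronal RNA-binding protein that regulates splicing and is expressed in 293 cells, was at 0.925, 0.316 and 0.805 CPM in the G2087R libraries, against 2.57, 4.27 and 5.14 CPM in the WT libraries. All 3 G2087R libraries, replicate 3 included, lay below all WT libraries, and KO lay between them at 1.83 CPM ± 0.495 (SD, n = 3). The V2084D (2.09, 2.28 and 2.54 CPM) and G2087E libraries (1.29, 1.86 and 1.74 CPM) also lay below all WT libraries. Those of K2025E (3.32, 2.68 and 3.79 CPM) lay inside the range of WT. A low level was thus not particular to G2087R. The counts behind these levels were 49, 17 and 36 in G2087R and 119, 247 and 224 in WT. CELF3 fell by 2.55 on the log2 scale (SE 0.367, adjusted p = 0.0321). The call ended without G2087R replicate 1 (adjusted p = 0.0767), G2087R replicate 2 (0.186), WT replicate 2 (0.198) or WT replicate 3 (0.128), with offsets for GC content and length (0.141) with the 2 groups alone in the fit (0.979) and with those and the replicate block (0.0817), and over the 16 alternatives the value stayed between -2.85 and -2.21. In replicate 3 alone it was -2.31 (SE 0.491, adjusted p = 0.268), and in replicates 1 and 2 it was -2.68 (SE 0.431, adjusted p = 0.0296).

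**Figure D3:**
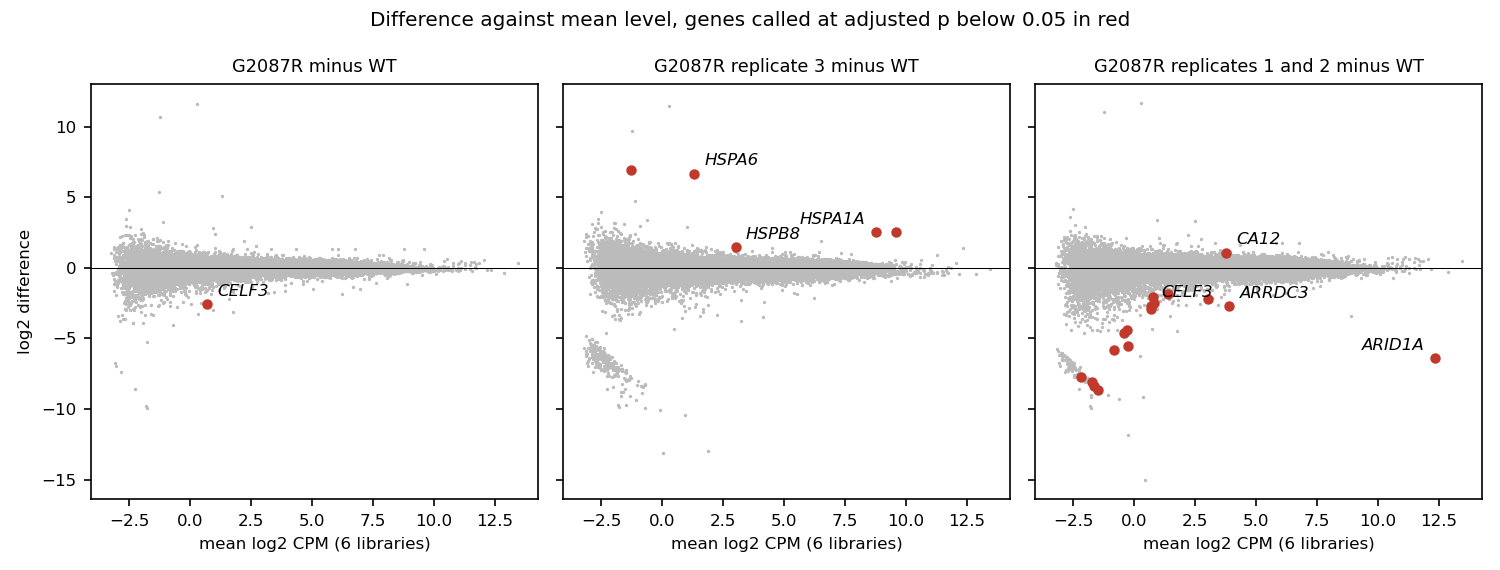
Log2 difference against mean log2 CPM over the 6 libraries for 21123 genes, in the comparison of all 3 G2087R libraries, of replicate 3 and of replicates 1 and 2 with WT, with genes at an adjusted p below 0.05 in red. CELF3 is the red point at left, 5 genes, the heat shock ones, are red in the middle and 17 genes are red at right, and the detached grey cloud below holds mostly genes listed at 0 in the library or libraries tested.

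Of the genes at 1 or more in mean log2 CPM whose libraries did not overlap between the groups, those with the smallest p in each direction did not pass the test in the edgeR fit without a block. With the replicate number as a block and offsets for GC content and length, RND1 (adjusted p = 0.0382), PYGM (0.0327), NXF1 (0.0382) and KIF20A (0.0382) passed it. NME1-NME2 passed it with the block and the G2087R and WT libraries alone (adjusted p = 0.00934). Among the lower ones, CCNA1, the cyclin A of germ cells, was at 1.66, 1.43 and 1.72 CPM in G2087R, against 3.28, 3.22 and 4.01 CPM in WT (-1.13, SE 0.237, adjusted p = 0.747; DESeq2 adjusted p = 0.0111). RND1, a small GTPase, was at 2.76, 2.49 and 2.82 CPM against 6.32, 5.29 and 7.71 CPM (-1.26, SE 0.289, adjusted p = 0.926; DESeq2 adjusted p = 0.0362). PYGM, the muscle form of glycogen phosphorylase, was at 1.30, 1.97 and 2.62 CPM against 5.11, 4.24 and 9.31 CPM (-1.66, SE 0.395, adjusted p = 0.953; DESeq2 adjusted p = 0.0362). For these genes replicate 3 lay below WT like replicates 1 and 2, and KO averaged 1.55 CPM for CCNA1, 4.92 CPM for RND1 and 3.74 CPM for PYGM. SFPQ, a splicing factor, was at 562, 642 and 659 CPM in G2087R, against 806, 877 and 925 CPM in WT (-0.49, SE 0.121, adjusted p = 0.953), and NXF1, the main exporter of mRNA, at 95.6, 97.0 and 117 CPM against 150, 138 and 162 CPM (-0.54, SE 0.140, adjusted p = 0.972). ZSWIM3 differed by -1.002 (SE 0.248), KIF20A by -0.58 (SE 0.160) and the read-through transcript NME1-NME2, which shares its reads with NME1 and NME2 and is therefore uncertain, by -1.46 (SE 0.374).

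Among the higher ones, CA12, a carbonic anhydrase of the cell membrane, was at 21.5, 21.1 and 14.0 CPM in G2087R, against 10.97, 11.2 and 8.21 CPM in WT (0.90, SE 0.193, adjusted p = 0.747; DESeq2 adjusted p = 0.0111). GLA, the lysosomal alpha-galactosidase, was at 424, 377 and 328 CPM against 260, 218 and 272 CPM (0.59, SE 0.144, adjusted p = 0.953). SCD, which puts the double bond into stearate, was at 2076, 2123 and 1502 CPM against 1029, 1290 and 1371 CPM (0.63, SE 0.167, adjusted p = 0.972). Here replicate 3 was the lowest G2087R library and the nearest to WT, and KO averaged 18.2 CPM for CA12, 329 CPM for GLA and 1967 CPM for SCD. COL6A3, a chain of collagen VI, was at 9.93, 9.45 and 5.81 CPM in G2087R, against 3.02, 5.79 and 4.66 CPM in WT (0.90, SE 0.249, adjusted p = 0.972). GALNT12, which starts O-glycan chains, differed by 0.71 (SE 0.198), SOX4, a transcription factor of progenitor cells, by 0.65 (SE 0.182), TIMP3, an inhibitor of metalloproteinases, by 0.53 (SE 0.149), and UNC5C, a netrin receptor, by 0.75 (SE 0.214).

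**Figure D4:**
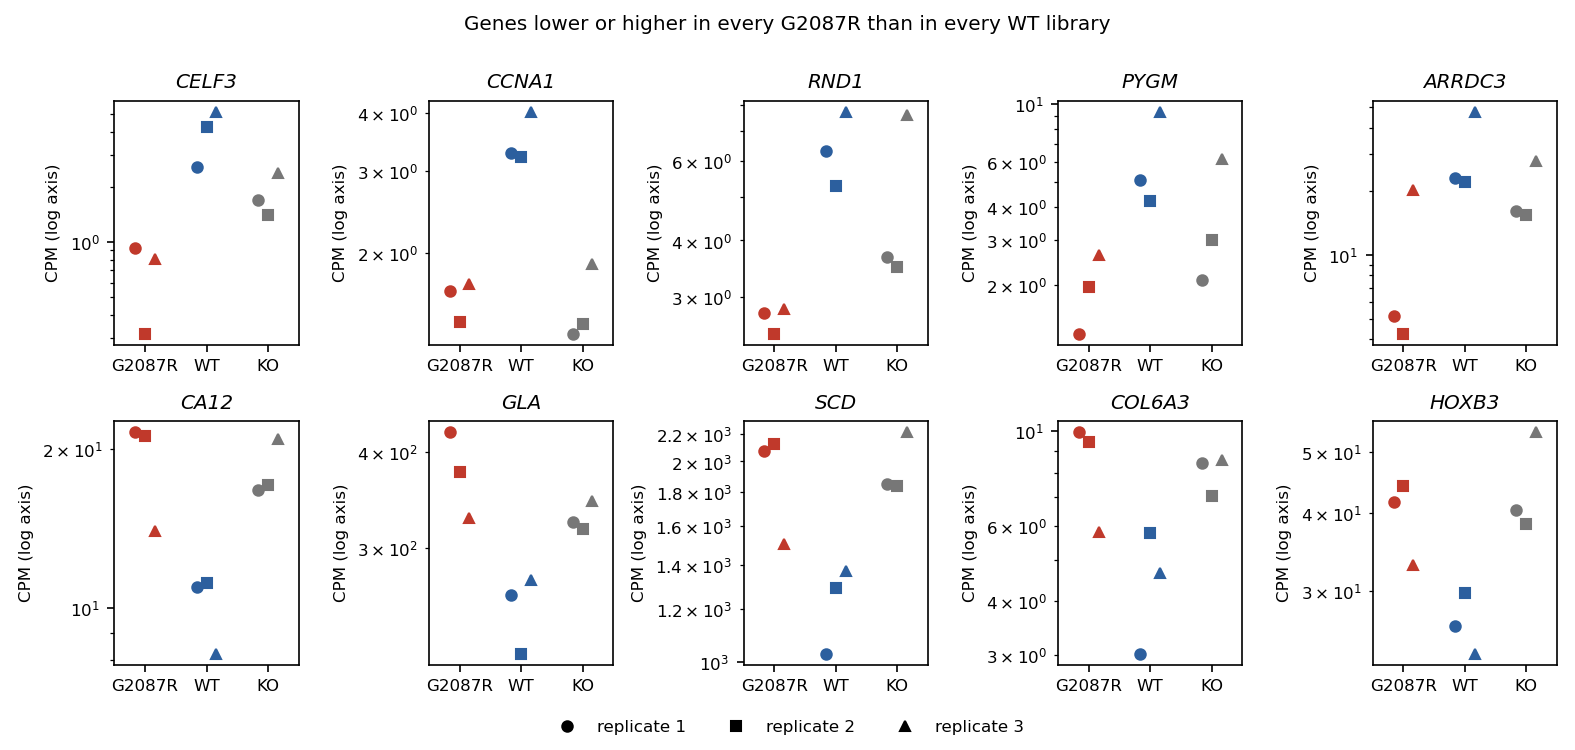
CPM on log axes of 10 genes whose 3 G2087R libraries all lay below (5 genes) or above (5 genes) the 3 WT libraries, with KO beside them, 1 point per library and shape for replicate number. Of these, CELF3 passed the test over all 3 G2087R libraries, and in CA12, GLA, SCD, COL6A3 and HOXB3 the G2087R point nearest to WT is replicate 3.

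Gene lists were described by their counts and medians, with no test of a list, and none of their members except CELF3 passed the test over all 3 G2087R libraries. Of the genes of mitosis and G2/M, 29 of 31 had a negative difference: 14 of 31 were lower in G2087R at an unadjusted p below 0.05 (beside 2.26% of all genes), 0 were higher, and 10 of 31 lay below every WT library (beside 4.72%). The median difference was -0.41, beside 0.00 over all genes. AURKA, a kinase of the spindle poles, was at 108, 104 and 119 CPM in G2087R, against 151, 129 and 283 CPM in WT (-0.77, SE 0.224, adjusted p = 0.972). KIF2C, a kinesin that takes microtubules apart, was at 131, 117 and 144 CPM against 181, 157 and 269 CPM (-0.63, SE 0.185, adjusted p = 0.972). PTTG1, the securin that restrains the separation of sister chromatids, was at 58.2, 53.2 and 70.2 CPM against 103, 69.6 and 124 CPM (-0.71, SE 0.211, adjusted p = 0.972). WT replicate 3 was the highest library for each of the 3, and without it the differences of AURKA and KIF2C were -0.34 and -0.37. Within replicate numbers 1, 2 and 3 the median was -0.34, -0.31 and -0.39, and 22 of 31 genes were lower in all 3 numbers and 0 higher in all 3, where 18% and 17.9% of all genes were. Summed over the list, G2087R held 3917, 3734 and 4840 CPM, WT 4719, 4570 and 6794 CPM and KO 4499, 4378 and 4039 CPM. Without WT replicate 3 the median was -0.19 and 7 genes had such a p. The count was 9 without G2087R replicate 1 and 7 without G2087R replicate 2. In G2087R replicate 3 against WT the median was -0.18, and it was 0.01 without WT replicate 3.

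HOX genes, which fix position along the body axis, lay on the other side. Of 38 genes, 9 were higher in G2087R at an unadjusted p below 0.05 (beside 2.05%), 0 were lower, and 10 lay above every WT library (beside 4.76%), with a median of 0.32. HOXB3 was at 41.6, 44.1 and 33.1 CPM in G2087R, against 26.4, 29.8 and 23.9 CPM in WT (0.57, SE 0.175, adjusted p = 0.972), and KO was at 44.1 CPM ± 8.33 (SD, n = 3). HOXD4 (0.81, SE 0.337) and HOXB9 (0.34, SE 0.169) overlapped between the groups. When a library was left out, HOXD4 ran from 0.535 without WT replicate 1 to 1.267 without WT replicate 2, and HOXB9 was 0.23 without G2087R replicate 1. WT replicate 3 was the lowest library for HOXB3 and HOXB9. Within numbers 1, 2 and 3 the median was 0.20, 0.25 and 0.52. In G2087R replicate 3 against all WT libraries it was 0.17, and 0.07 without WT replicate 3. Of the 38 genes, 24 were higher in all 3 numbers (beside 17.9% of all genes) and 1 lower (beside 18%). Summed over the list, G2087R held 1286, 1268 and 1151 CPM, WT 1150, 1101 and 791 CPM and KO 1384, 1267 and 1721 CPM. Without WT replicate 3 the median over all 3 G2087R libraries was 0.19 and 2 genes had such a p. Without G2087R replicate 2 there were 4 such genes that were higher and 1 that was lower. Kidney progenitor transcription factors had a median of 0.24 over 16 genes, or 0.05 without G2087R replicate 2, 0.11 without WT replicate 3, 0.39 without WT replicate 2 and 0.45 without G2087R replicate 3. In replicate 3 against WT that median was -0.22.

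Collagens, laminins and integrins, the proteins of the extracellular matrix and their receptors, had a median of 0.32 over 33 genes. Of these, 7 were higher in G2087R at an unadjusted p below 0.05 (beside 2.05% of all genes) and 0 lower (beside 2.26%), but within numbers 1, 2 and 3 the median was 0.61, 0.33 and -0.02, and 1 gene was left without G2087R replicate 1, G2087R replicate 2 or WT replicate 1, and 12 without G2087R replicate 3. LAMA1, a laminin chain, was at 61.5, 64.5 and 46.5 CPM in G2087R, against 29.2, 42.3 and 47.1 CPM in WT (0.54, SE 0.211, or 0.36 without WT replicate 1), and COL5A1, a chain of collagen V, at 53.4, 58.4 and 37.7 CPM against 30.1, 42.2 and 31.6 CPM (0.52, SE 0.206), both at an adjusted p of 0.972. Of 28 genes of cholesterol and fatty acid synthesis, the median was 0.17, with 3 genes higher (beside 2.05%) and 1 lower (beside 2.26%) at an unadjusted p below 0.05. When a library was left out, 1 to 6 were higher and 0 to 2 lower. The median within numbers 1, 2 and 3 was 0.26, 0.21 and 0.03, and in replicate 3 against WT it was -0.05. INSIG1, the sterol sensor partner, was at 133, 138 and 91.5 CPM in G2087R, against 96.5, 86.4 and 74.0 CPM in WT (0.50, SE 0.181), and FASN, fatty acid synthase, at 1869, 2218 and 970 CPM against 1152, 1646 and 896 CPM (0.45, SE 0.270).

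Transcripts encoded in mitochondrial DNA split by library. All 13 had a positive difference (median 0.34), but within numbers 1, 2 and 3 the median was 0.78, 0.47 and -0.28. They made up 5.22, 5.17 and 3.32% of counts in G2087R, against 3.18, 3.92 and 3.85% in WT, and 4.99 to 5.33% in KO. MT-CO1 was at 14610, 13860 and 9589 CPM in G2087R, against 8489, 10380 and 11160 CPM in WT. The part of this share in the other results was not tested. Nuclear genes of the respiratory chain (median -0.18, 36 genes), proteasome subunits (-0.25, 32 genes) and cytosolic ribosomal proteins (-0.17, 33 genes) had negative medians over all 3 libraries. Without WT replicate 1 these medians were -0.04, -0.16 and -0.01, and the ribosomal one was -0.06 without G2087R replicate 3. All 33 ribosomal differences were negative, yet within number 2 the median was 0.14 for the ribosomal and 0.04 for the respiratory chain genes, and the groups overlapped for each ribosomal gene. In replicate 3 against WT the medians were -0.41 for the ribosomal and -0.37 for the respiratory chain genes. There 26 of 33 and 22 of 36 lay below every WT library, beside 24.7% of all genes. Without WT replicate 1 these 2 medians were -0.27 and -0.20. BAF subunits, Polycomb subunits, interferon-stimulated genes and the metallothionein and NRF2 genes had medians between -0.02 and 0.08. ARID1B, the paralogue of ARID1A in the complex, was at 86.5, 95.9 and 98.8 CPM in G2087R, against 51.7, 91.1 and 71.5 CPM in WT, with overlap (0.39, SE 0.214, adjusted p = 0.972). It was picked as the closest relative of ARID1A, once its values were known.

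**Figure D5:**
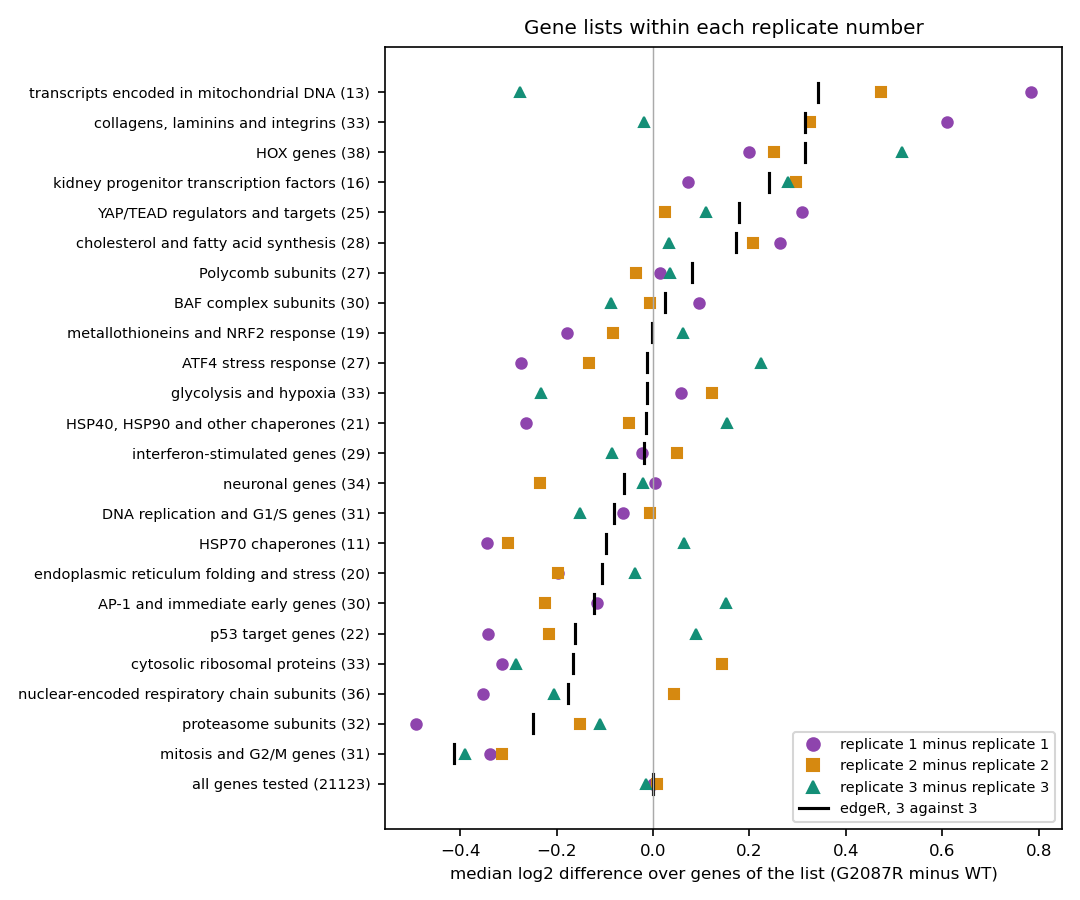
Median log2 difference of G2087R minus WT for each gene list, with the number of genes in brackets, within replicate number 1, 2 and 3 (points) and in the edgeR fit of 3 against 3 libraries (black bars). Mitosis and G2/M genes lie at -0.34, -0.31 and -0.39 and HOX genes at 0.20, 0.25 and 0.52, whereas mitochondrial transcripts lie at 0.78, 0.47 and -0.28.

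The libraries labelled G2087R replicates 1 and 2, whose ARID1A near the KO level goes against that label, differed from WT in 17 genes (0.0805%), of which 1 rose (0.00473%) and 16 fell (0.0757%). At an unadjusted p below 0.05, 3006 genes differed (14.2%), of which 1341 were higher (6.35%) and 1665 lower (7.88%), and DESeq2 called 476. The filter on low counts, 3 of 6 libraries, kept genes absent from this pair that the other libraries held, but none that the pair alone held, so the split by direction is a description. With no filter, 1 gene was called higher and 15 lower. Both libraries lay outside the range of WT in 39.2% of genes, above it in 20.2% and below it in 19%. With the replicate number as a block 35 genes were called, 4 higher and 31 lower, which held 15 of the 17. Leaving out a library gave 3 calls (G2087R replicate 1), 4 (G2087R replicate 2), 12 (WT replicate 1), 6 (WT replicate 2) and 2 (WT replicate 3). ARID1A was 1 of the 16 and had chosen the split, so its difference of -6.41 is a description.

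ARRDC3 (chromosome 5, 91368724 to 91383359, minus strand), an arrestin-domain protein that sends membrane receptors to degradation, was at 5.17, 4.25 and 20.3 CPM in G2087R replicates 1, 2 and 3, against 23.0, 22.1 and 47.3 CPM in WT. Replicates 1 and 2 lay far below KO (19.8 CPM ± 6.97, SD, n = 3) as well, and replicate 3 lay at its level. Over all 3 G2087R libraries, each below every WT library, the difference was -1.64 (SE 0.499, adjusted p = 0.972). With the replicate block the adjusted p was 0.0681. ARRDC3 passed the test with the block and offsets for GC content and length (adjusted p = 0.00412). It also passed with the block and the G2087R and WT libraries alone (0.0141). In replicates 1 and 2 it fell by 2.71 (SE 0.448, adjusted p = 0.0296), and the call ended without G2087R replicate 1 (0.196), G2087R replicate 2 (0.346) or WT replicate 3 (0.0902). MXD1, which competes with MYC for its partner MAX, was at 3.47 and 2.49 CPM in replicates 1 and 2 and at 14.4 CPM in replicate 3, against 9.05, 12.4 and 18.9 CPM in WT, and fell by 2.18 in replicates 1 and 2 (SE 0.384, adjusted p = 0.0406). TEX14, a protein of germ cell bridges, was at 1.49, 0.817 and 3.49 CPM in G2087R, against 5.17, 3.65 and 3.76 CPM in WT, and fell by 1.86 (SE 0.324, adjusted p = 0.0375). For both genes replicates 1 and 2 lay below every KO and WT library, while replicate 3 lay near them. CA12 rose by 1.08 (SE 0.185, adjusted p = 0.0375). Of the alternatives that left out a library, MXD1 kept its call without WT replicate 1, and TEX14 and CA12 kept theirs in none (adjusted p up to 0.478).

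The other called genes were low: 12 of the 17, CELF3 among them, had a mean log2 CPM under 1. Of these, 4 had no count in G2087R replicates 1 and 2, and another 4 had 1 to 10 counts in both together. The 3 protein-coding genes without a count, IL17F, KCTD14 and GPNMB, were chosen once their values were known. IL17F, a cytokine, had 0, 0 and 45 counts in G2087R replicates 1, 2 and 3, against 50, 20 and 51 in WT, and 12 to 51 in the 16 libraries other than replicates 1 and 2. KCTD14 had 0, 0 and 38 counts, against 51, 42 and 62 in WT, and 16 to 96 in those 16 libraries. GPNMB, a membrane glycoprotein of melanosomes and macrophages, had 0, 0 and 43 counts, against 31, 35 and 38 in WT, and 5 to 62 in those 16. Thus these transcripts were detected in every 293T library except this pair. They passed the filter through G2087R replicate 3 and WT alone, so their folds are a description. Against a floor of 3 counts over both libraries, they were at least 28.8-fold, 36.9-fold and 24.8-fold lower than in the pooled WT counts. Floors and counts cover counting error only.

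For the HSP70 genes the pair gave negative differences where replicate 3 gave mostly positive ones. Of the 11 HSP70 genes, 0 passed the test in replicates 1 and 2, all 11 had a negative difference and 7 had an unadjusted p below 0.05 (beside 7.88% of all genes), with a median of -0.63. The 7 became 2 without G2087R replicate 1, 3 without G2087R replicate 2 and 1 without WT replicate 3. HSPA8 differed there by -0.68 (SE 0.241) and by 0.56 (SE 0.297) in replicate 3, and HSPA5 by -0.71 (SE 0.222) and 0.39 (SE 0.277), each against the same WT libraries. Neither passed the test (adjusted p of 0.226 and 0.956 for HSPA8, 0.189 and 0.956 for HSPA5).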

How the data were processed

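The authors deposited a table of raw read counts per gene for the 293T libraries, with GRCh38 and edgeR among the tools in the submitters' processing notes. The aligner, the counter and its strand setting are not given in the sources used here, so overlapping and antisense genes may share reads. The 6 libraries held 45137105 to 55539529 counts. Genes with at least 10 counts in at least 3 of the G2087R and WT libraries were kept (21123 of 67130). All 18 libraries of 293T entered 1 edgeR quasi-likelihood fit (edgeR 4.0.16, R 4.3.3, TMM scaling), with Benjamini-Hochberg adjustment over all tested genes and a threshold of 0.05. The fit for replicate 3 left out G2087R replicates 1 and 2, and the fit for those left out replicate 3. The SE of a difference is its size divided by the square root of its F value. Gene positions come from GENCODE 29 (GRCh38), and promoters from RefSeq.

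The libraries, gene lists and tests were chosen with earlier results of these data known. Named genes were ARID1A, STUB1, CELF3 and every gene called over all 3 G2087R libraries, the 8 protein-coding genes in each direction with the smallest p, no overlap and a mean level of 1 or more in log2 CPM, the largest called ones of each other comparison, and up to 4 members of each list with the smallest p (all members of lists of 13 or fewer).

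Same-numbered G2087R and WT libraries deviated together from their group means, for number 1 by a small margin only. The correlations were 0.15, 0.234 and 0.371 for numbers 1, 2 and 3, against -0.268 to 0.128 for other pairs. Deviations cancel out within a group, so these correlations depend on each other. The main fits used the group only, and the replicate number served as a block in alternatives and for differences within a number. The labels do not say what a number marks. Alternatives were DESeq2 1.42.0, other size factors, scaling without ARID1A, other filters, the G2087R and WT libraries alone, offsets for GC content and length (mgcv 1.9.3, known for 98.1% of genes), the replicate number as a block, and each library left out in turn. The procedure was run on simulated counts in which the G2087R libraries shared the same expected level for each gene. The real G2087R libraries split by replicate, a setting that the simulation did not cover. Some named genes are not reported here.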

Additional observations from a re-analysis of the deposited data

How the results depend on the processing

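Over all 3 G2087R libraries, the count of 1 called gene became 14 with DESeq2 and 0 with offsets for GC content and length, and 0 to 17 when a library was left out. With the replicate number as a block it stayed at 1, but it was 17 with the offsets added to the block and 11 with the block and only the G2087R and WT libraries. For replicate 3, the 5 calls became 21 with DESeq2, 11 with only these libraries, 10 with the offsets, and 2 to 5 when a WT library was left out. For replicates 1 and 2, the 17 calls became 476 with DESeq2, 174 with the offsets, 35 with the replicate block, 3 with only these libraries (0 of the 17 kept), and 2 to 12 when a library was left out. The cause of these shifts was not tested.

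Differences over all 3 libraries that changed sign did so when a library was left out: ARID1A ran from -6.41 to 1.619, STUB1 from -0.217 to 0.171, HSPA6 from -1.884 to 5.977, HSPA1A from -0.303 to 1.728 and HSPA1B from -0.286 to 1.769. Of the values of named genes under settings that kept all libraries, 498 kept direction and side of the threshold, 18 passed it newly, 12 lost it and 0 changed sign. Of those with a library left out, the numbers were 263, 4, 33 and 8. Depth limits genes with few counts, such as CELF3 with 17 to 49 counts per G2087R library.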

Other observations

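Some genes that overlapped between the groups stood apart in particular libraries. IRS4, 1 of the 16 genes typical of the 293 line and an adaptor of insulin signalling, was at 403, 413 and 229 CPM in G2087R, against 141, 234 and 173 CPM in WT. Replicates 1 and 2 lay above every WT library, while replicate 3 lay just below WT replicate 2. The difference was 0.93 (SE 0.328, adjusted p = 0.972). MYC was at 343, 384 and 105 CPM in G2087R, against 206, 232 and 103 CPM in WT, so that both libraries numbered 3 were low. Its difference was 0.62 (SE 0.393, adjusted p = 0.972). TXNIP, a thioredoxin-binding arrestin protein that rises with glucose, was at 7.99, 8.39 and 15.6 CPM in G2087R, against 15.6, 14.3 and 43.5 CPM in WT, so that G2087R replicate 3 overlapped WT and WT replicate 3 was far above the rest. The difference was -1.20 (SE 0.415, adjusted p = 0.972) and -0.488 without WT replicate 3, and with the replicate block and offsets for GC content and length it passed the test (adjusted p = 0.0382).

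Low-expressed genes of other tissues differed as well without passing the test. CHGA, a protein of neuroendocrine granules, was at 1.17, 1.21 and 2.996 CPM in G2087R, against 3.02, 3.56 and 6.33 CPM in WT (-1.27), and CD14, a receptor of monocytes, at 0.831, 0.538 and 1.21 CPM against 3.10, 2.20 and 2.96 CPM (-1.68). Every G2087R library lay below every WT library for both genes. Their depth is small, and PTPRC, a defining marker of blood cells, was at 0 in these libraries.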
